A study of Mus musculus with 16 samples.

Results

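Liver and brain transcripts were compared within the same 4 wild-type mice, on 8 of the 16 arrays of the series. The wild-type liver group and the wild-type brain group were taken from the genotype and tissue labels, with 4 arrays each. Liver and brain arrays that bear the same number came from 1 animal. All 4 mice were males aged 17 weeks of the strain C57BL/6J. The labels give the allele as Pts-R15C-ki on every array of the series, the wild-type arrays included, and name no brain region or liver lobe. The other 8 arrays hold liver and brain of 4 homozygous males of the same age and strain, and served here as a second set of animals for the same tissue contrast. Total RNA was hybridized to Illumina bead arrays, on which a probe's brightness follows the abundance of 1 transcript.

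The liver makes most plasma proteins, turns amino acids, sugars and fats into one another, detoxifies foreign compounds and forms bile. Hepatocytes do nearly all of this work, beside Kupffer cells, which are the resident macrophages, and a leaky sinusoidal endothelium. The brain is built of neurons, which signal through synaptic vesicles and receptors, of oligodendrocytes, which wrap axons in myelin, and of astrocytes and microglia, behind an endothelium that forms a tight barrier. In whole-tissue RNA, fewer cells of a type and less RNA per cell cannot be told apart.

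Probes were tested where the deposited detection p-value was under 0.05 on all 4 arrays of at least 1 tissue, which held for 13767 of 25697 probes and for 9560 genes. Between 11825 and 12170 probes were detected per liver array (12002 ± 159, SD, n = 4) and between 13302 and 14576 per brain array (13939 ± 563, SD, n = 4). The 100 brightest probes held 17.08% to 19.47% of the summed signal in liver and 10.11% to 10.51% in brain. Liver and brain arrays correlated at 0.3982 to 0.4257 across tested probes, against 0.9704 to 0.9933 among livers and 0.9764 to 0.9929 among brains. The first principal component held 95.41% of the variance and separated the tissues. The second held 1.977%, with the livers of mice 1 and 2 at 25.74 and 28.07 and those of mice 3 and 4 at -30.54 and -23.86. For some of the genes that differ by this split, each mouse's value is given below.

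Most tested transcripts differed between the tissues. By limma with mouse as a block, 10828 probes passed a Benjamini-Hochberg adjusted p of 0.05 and are named called below: 5338 (38.8%) were higher in liver and 5490 (39.9%) higher in brain, 78.7% in all. Differences are given as log2 of liver over brain, so that a positive value means more in liver. The median size of the difference was 1.02 over all tested probes, with a median standard error (SE) of 0.1531. Because a test against no difference passed so often, a second rule asked for a difference beyond 1 log2 unit (limma treat, adjusted p under 0.05). It was met by 5191 probes (37.7%), of which 2421 (17.6%) were higher in liver and 2770 (20.1%) higher in brain. The 4 liver and 4 brain values of a probe did not overlap for 74.3% of tested probes. With 1 probe per gene, the brightest on average, 37.4% of 9560 genes were called higher in liver and 41.9% higher in brain, and 17.1% and 21.7% passed 1 log2 unit. Without mice 1 and 2, 10271 probes were called and 4992 passed 1 log2 unit, among them 4754 (91.6%) of the 5191.

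**Figure D1:**
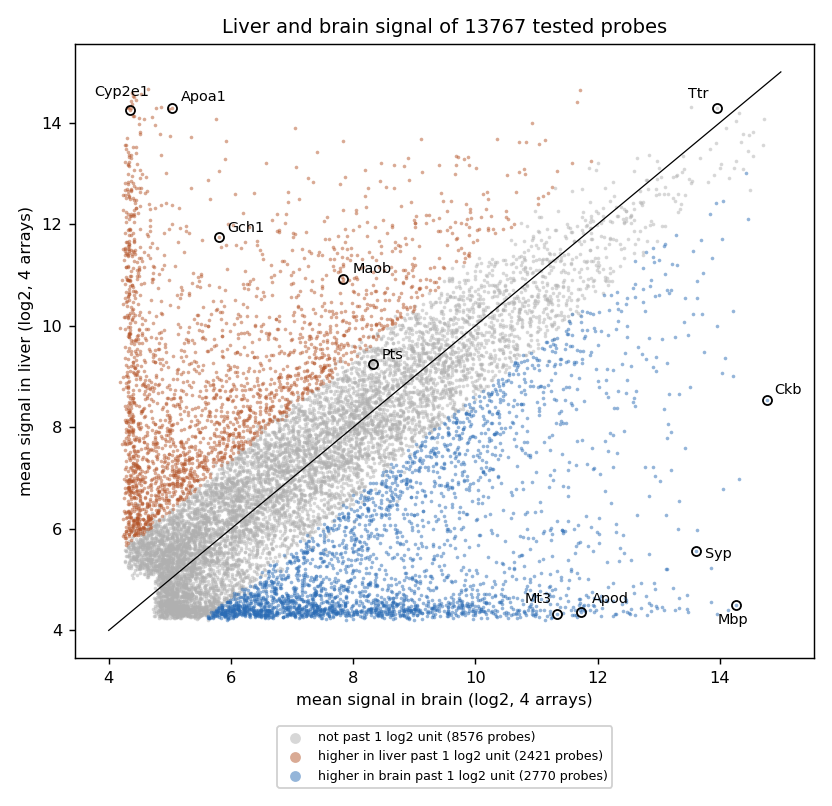
Mean log2 signal in brain (horizontal) and liver (vertical) of each tested probe, with the diagonal as the line of equal signal. Orange probes were higher in liver and blue probes higher in brain past 1 log2 unit, and circles mark named genes. Both arms along the axes hold probes at background in 1 tissue and bright in the other.

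Detection divided the tested probes further. On all 8 arrays, 9015 probes of 6468 genes were detected. Another 705 probes of 554 genes were detected on all 4 livers and on no brain, and 1943 probes of 1554 genes on all 4 brains and on no liver. Past 1 log2 unit were 573 of the former and 1209 of the latter. Of the same probes, 705 and 1879 were called higher in the tissue that detected them, and 0 in the other. They entered the test through that tissue, so the detection rule largely set their direction. Counts by list below include such genes. Among the probes detected on all 8 arrays, 1486 were higher in liver and 1102 higher in brain past 1 log2 unit. These classes depend on the level that counts as detected: the lowest detected signal was 4.939 to 5.012 on the livers and 4.614 to 4.754 on the brains. Where 0 of 4 arrays of a tissue detected a probe, the difference is a bound, set against the lowest detected signal on those arrays and given as "at least" a fold. The adjusted p printed beside a bound belongs to the probe's measured difference, and the bound itself was not tested.

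Among the largest bounds were those of secreted liver proteins on one side and of myelin and synapse on the other. Ahsg, fetuin-A of plasma, read 14.35, 14.25, 14.28 and 14.25 in the livers of mice 1 to 4, and 4.33, 4.33, 4.47 and 4.34 in their brains. It was at least 776.6-fold higher in liver (adjusted p = 1.48e-09). Mbp, myelin basic protein, read 4.64, 4.73, 4.35 and 4.32 in liver and 14.35, 14.08, 14.40 and 14.21 in brain. This probe was at least 623.9-fold higher in brain (adjusted p = 1.48e-09), and the other 2 Mbp probes differed by -3.49 and -6.24. For both genes the tissues stood at opposite ends of the signal range, with no overlap and an SD between mice of 0.05 and 0.20 in liver.

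Promoter sequences of genes detected in 1 tissue alone were set beside those of other genes. RefSeq promoter sequences of the assembly GRCm38.p6 were available for 350 of 446 genes detected in liver alone and past 1 log2 unit, and for 744 of 977 such genes in brain. In the 250 bases before the first listed start, the median number of CG pairs was 4 in the liver genes (quartiles 2 and 8) and 13 in the brain genes (quartiles 6 and 21). Genes detected on all 8 arrays and not past 1 log2 unit had a median of 17 over 3904 genes, all tested genes 15 over 7759, and all 27025 RefSeq promoters a median of 6. At least 10 CG pairs were found in 21.4% of the liver genes, 59.9% of the brain genes, 81.2% of the genes on all 8 arrays without such a difference and 38.2% of all promoters. Restricted to genes with 1 listed start, the medians were 4 over 284 liver genes and 14 over 546 brain genes.

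**Figure D2:**
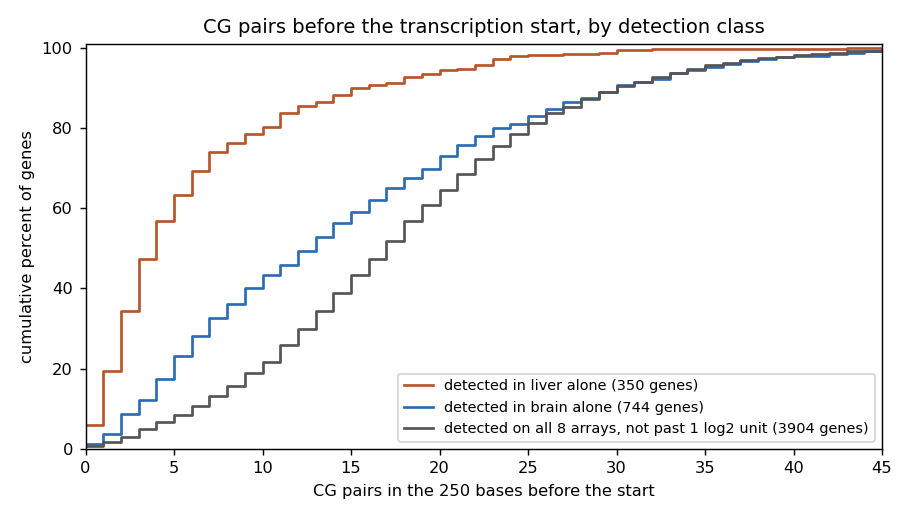
Cumulative percent of genes (vertical) by the number of CG pairs in the 250 bases before the transcription start (horizontal). The curve of the 350 genes detected in liver alone rises first (median 4), the 744 genes detected in brain alone follow (median 13), and the 3904 genes detected on all 8 arrays without a difference past 1 log2 unit rise last (median 17).

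Short motifs of 3 kinds were searched in the same bases. TATAAA, the TATA box, was read on the gene's strand between 50 and 11 bases before the start. It was present in 6.86% of the liver genes (24 genes), 1.61% of the brain genes (12 genes), 1.68% of all tested genes and 2.64% of all promoters. GTTAAT, or ATTAAC on the other strand, which is one arm of the site that hepatocyte nuclear factor 1 binds, was present anywhere in the 250 bases in 13.1% of the liver genes, 4.17% of the brain genes, 4.23% of all tested genes and 6.52% of all promoters. TGACGTCA, the palindromic cyclic AMP response element, was present in 0.286% of the liver genes, 2.42% of the brain genes, 2.58% of all tested genes and 1.62% of all promoters. For each motif the brain genes were thus close to all tested genes. Each motif was counted on its own, and TGACGTCA holds 1 CG pair. A match describes the letters only.

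Promoters of 8 genes are printed to show these classes, as the 120 bases before the start on the gene's strand. Each of 4 liver and 4 brain gene lists gave 1 member. Each printed gene had 1 listed start, was detected in 1 tissue alone and passed 1 log2 unit. It need not be the first such member of its list. These genes were picked after their values were seen. Capitals mark CG pairs and the motifs named above.
Ahsg (fetuin-A, liver alone, chr16:22891895-22892014, plus strand): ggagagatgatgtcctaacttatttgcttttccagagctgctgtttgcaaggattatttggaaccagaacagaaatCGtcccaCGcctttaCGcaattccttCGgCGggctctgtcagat
Fga (fibrinogen alpha chain, liver alone, chr3:83026033-83026152, plus strand): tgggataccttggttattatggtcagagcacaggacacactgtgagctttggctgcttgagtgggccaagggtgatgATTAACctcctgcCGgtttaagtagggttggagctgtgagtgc
Cyp2e1 (cytochrome P450 2E1, liver alone, chr7:140763699-140763818, plus strand): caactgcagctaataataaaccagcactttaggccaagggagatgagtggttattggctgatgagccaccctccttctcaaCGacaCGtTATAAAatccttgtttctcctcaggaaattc
Hpd (4-hydroxyphenylpyruvate dioxygenase, liver alone, chr5:123182724-123182843, minus strand): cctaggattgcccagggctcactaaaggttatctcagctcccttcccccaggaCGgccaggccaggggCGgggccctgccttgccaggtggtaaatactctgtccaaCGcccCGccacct
Cplx1 (complexin 1, brain alone, chr5:108550028-108550147, minus strand): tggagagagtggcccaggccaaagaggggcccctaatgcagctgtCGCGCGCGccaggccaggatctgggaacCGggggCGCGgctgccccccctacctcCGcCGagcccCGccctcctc
Ina (alpha-internexin, brain alone, chr19:47014561-47014680, plus strand): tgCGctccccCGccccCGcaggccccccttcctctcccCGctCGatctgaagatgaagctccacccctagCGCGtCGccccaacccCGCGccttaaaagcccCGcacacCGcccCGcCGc
Sst (somatostatin, brain alone, chr16:23890845-23890964, minus strand): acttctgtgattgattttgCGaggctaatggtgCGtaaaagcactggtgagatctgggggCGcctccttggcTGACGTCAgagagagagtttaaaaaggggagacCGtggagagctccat
Mobp (myelin-associated oligodendrocyte basic protein, brain alone, chr9:120149622-120149741, plus strand): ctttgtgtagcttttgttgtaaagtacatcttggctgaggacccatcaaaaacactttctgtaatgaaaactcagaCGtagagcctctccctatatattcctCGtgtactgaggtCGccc

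The 4 liver promoters held between 1 and 5 CG pairs in these 120 bases, Fga the fewest. In Fga, ATTAAC begins 43 bases before the start, and in Cyp2e1 TATAAA begins 31 bases before it. Among the brain promoters, Ina held 14 CG pairs and Cplx1 10. Sst held 5 and carried TGACGTCA 48 bases before its start. The Mobp promoter held 3, so that a gene of the brain group read like the liver group by this count.

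Carrier and transport proteins of plasma had 16 tested members, of which 16 were called higher in liver (38.8% of all tested probes and 37.4% of genes were), with a median difference of 7.74 against -0.09 over all genes. With genes undetected in 1 tissue set at their bound, the median was 7.46, and medians of the other lists are followed by that value in brackets. Hpx, the haem scavenger hemopexin, read 14.71, 14.71, 14.45 and 14.80 in liver and 4.69, 4.89, 4.53 and 4.48 in brain, a difference of 10.02 (SE 0.14, adjusted p = 1.48e-09). Serpina1b, alpha-1-antitrypsin, was at least 958-fold higher in liver (adjusted p = 1.48e-09), where it read 14.55 to 14.69. Copies of Serpina1 are nearly identical in mouse, so which copy its 2 probes read is uncertain.

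Alb, the albumin gene, did not read as an abundant transcript. Its single probe was detected on 4 of 4 livers at 5.50, 5.11, 5.36 and 5.90 and on 0 of 4 brains at 4.26 to 4.33, a difference of at least 1.73-fold (adjusted p = 0.000222). Trf, transferrin, the iron carrier of plasma, was high in both tissues, at 14.29 to 14.47 in liver and 11.47 to 11.86 in brain, and differed by 2.75 (SE 0.13, adjusted p = 3.17e-07). Ttr, transthyretin, the carrier of thyroxine and retinol-binding protein, differed least in this group. It read 14.16, 14.12, 14.49 and 14.37 in liver and 13.82, 13.92, 14.01 and 14.09 in brain, 0.32 higher in liver (SE 0.13, adjusted p = 0.0449), and the lowest liver value lay just above the highest brain value.

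The choroid plexus, the epithelium that secretes cerebrospinal fluid, is known for abundant Ttr. Of its 5 tested markers, 4 were called higher in brain and 1, the water channel Aqp1, higher in liver by 4.14 (SE 0.27, adjusted p = 1.86e-06). The shares of all genes were 41.9% in brain and 37.4% in liver. Folr1, Kl, Kcne2 and Otx2 were detected on 4 of 4 brains and 0 of 4 livers. Their brain signals ran from 5.02 for Folr1, the folate receptor of this epithelium, to 6.79 for the transcription factor Otx2. Folr1 was at least 1.125-fold higher in brain (adjusted p = 0.0145), a call lost without mouse 2. The part of choroid plexus in the brain signal of Ttr was not tested.

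Apolipoproteins and the factors of lipoprotein assembly were called higher in liver for 12 of 13 members. Apoa1, the main protein of high-density lipoprotein, had the largest difference among probes detected on all 8 arrays. It read 14.06, 14.22, 14.43 and 14.43 in liver and 4.96, 5.16, 5.27 and 4.76 in brain, a difference of 9.24 (SE 0.15, adjusted p = 1.52e-09). Apoc3, an inhibitor of triglyceride clearance, was at least 945.2-fold higher in liver (adjusted p = 1.48e-09). Apoe, the apolipoprotein that astrocytes also secrete, was at 13.36 to 13.77 in liver and 10.90 to 11.31 in brain, 2.53 higher in liver (SE 0.14, adjusted p = 7.63e-07). The exception was Apod, a lipid-binding lipocalin despite its name. It read 4.43, 4.24, 4.41 and 4.42 in liver and 11.43, 12.06, 11.46 and 11.96 in brain, at least 108-fold higher in brain (adjusted p = 6.00e-09). No liver value of Apod came near its brain values.

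Clotting factors and complement followed the plasma proteins. Of 16 coagulation genes, 16 passed 1 log2 unit in favour of liver, with a median of 7.28 (6.98). Fga, whose promoter is printed above, read 14.45, 14.50, 14.33 and 14.38 in liver and 4.27 to 4.43 in brain, at least 852.3-fold higher in liver (adjusted p = 1.48e-09). F2, prothrombin, differed by 7.75 (SE 0.16, adjusted p = 3.45e-09). Pros1, protein S, an anticoagulant cofactor, was also clear in brain at 7.31 to 7.62, and its difference of 2.89 (SE 0.16, adjusted p = 6.51e-07) was the lowest of the 16.

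Complement had 19 tested members, of which 17 were called higher in liver and 0 higher in brain. C9, which forms the membrane pore, was at least 314.7-fold higher in liver (adjusted p = 1.48e-09). The 3 chains of C1q, which starts the classical pathway and is made by macrophages, were exceptions in size. C1qa was higher in liver by 0.64 (SE 0.15, adjusted p = 0.00526), whereas C1qb (-0.12, SE 0.18, adjusted p = 0.556) and C1qc (0.10, SE 0.16, adjusted p = 0.575) were not called. C1qb read 8.38 to 8.81 in liver and 8.34 to 8.99 in brain, so that the tissues overlapped.

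Nitrogen and amino acid metabolism lay in liver. Of 9 genes of the urea cycle and ammonia handling, 9 were called higher in liver and 8 passed 1 log2 unit. Cps1, the mitochondrial entry enzyme of the cycle, read 12.86, 12.97, 13.36 and 13.56 in liver and 4.24 to 4.41 in brain, at least 363.9-fold higher in liver (adjusted p = 2.07e-09). Arg1, which releases urea, was at least 306.6-fold higher in liver (adjusted p = 1.48e-09). Glul, glutamine synthetase, which astrocytes also use, did not pass 1 log2 unit. It read 6.65 to 7.23 in liver and 5.62 to 6.09 in brain, a difference of 1.03 (SE 0.14, adjusted p = 0.000185).

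All 8 tested genes of aromatic amino acid and tryptophan breakdown passed 1 log2 unit in favour of liver. Hpd, of tyrosine breakdown, was at least 97.4-fold higher in liver (adjusted p = 1.42e-08). Its 4 livers read 10.82, 10.97, 11.69 and 11.66, with mice 1 and 2 below mice 3 and 4. Tdo2, which opens the tryptophan ring, was at least 11.8-fold higher in liver (adjusted p = 2.62e-08). Fah, the last enzyme of tyrosine breakdown, was also detected on 4 of 4 brains at 9.17 to 10.15, and differed by 3.32 (SE 0.19, adjusted p = 8.25e-07).

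**Figure D3:**
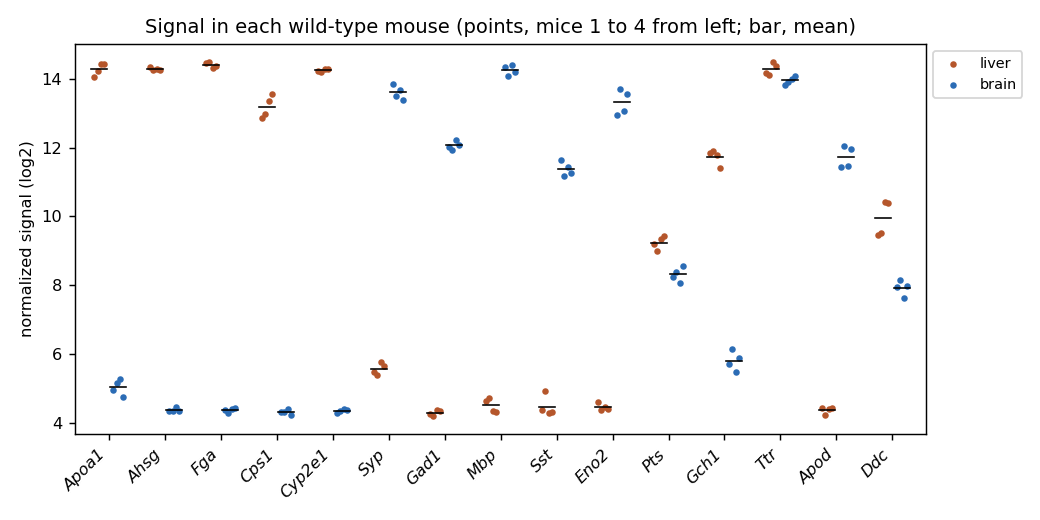
Normalized log2 signal of 15 named genes in each wild-type mouse, liver in orange and brain in blue, mice 1 to 4 from left to right within each tissue and the bar at the mean of 4. Apoa1, Ahsg, Fga, Cps1 and Cyp2e1 are high in liver alone, Syp, Gad1, Mbp, Sst, Eno2 and Apod high in brain alone, and Ttr is bright in both tissues.

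Of 10 genes of gluconeogenesis, glycogen and fructose use, 10 passed 1 log2 unit in favour of liver. Fbp1, fructose bisphosphatase, differed by 7.18 (SE 0.14, adjusted p = 2.76e-09). Pck1, the cytosolic enzyme that commits carbon to glucose, was at least 9.75-fold higher in liver (adjusted p = 3.55e-07). G6pc, glucose 6-phosphatase, which frees glucose into blood, was the most variable of them. It read 9.17, 10.39, 12.52 and 12.56 in the livers of mice 1 to 4 and 4.39 to 4.94 in brain, a difference of 6.57 (SE 0.57, adjusted p = 1.19e-05), and 8.14 without mice 1 and 2.

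Fatty acid oxidation was called higher in liver for 10 of 10 genes, with a median difference of 3.29 (3.21), and 8 of the 10 were detected on all 8 arrays. Cpt2, the inner carnitine transferase of mitochondria, differed by 4.30 (SE 0.13, adjusted p = 2.10e-08), and Acadl, long-chain acyl-CoA dehydrogenase, by 3.15 (SE 0.13, adjusted p = 1.04e-07). Ehhadh of the peroxisome was at least 9.63-fold higher in liver (adjusted p = 2.99e-07). In cholesterol synthesis and uptake, 10 of 12 genes were called higher in liver and 9 passed 1 log2 unit. Lss, which closes the sterol rings, differed by 3.91 (SE 0.16, adjusted p = 1.21e-07). Sqle, which feeds it, differed by 0.80 (SE 0.17, adjusted p = 0.00293). Hmgcs1, the first committed enzyme, was higher in brain by the main normalization (-0.35, SE 0.12, adjusted p = 0.0320), and higher in liver when arrays were scaled to their 75th percentile (1.14) or normalized by cyclic loess (0.20, adjusted p = 0.203). Leaving out any 1 mouse also ended the call, at -0.38 to -0.31.

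Bile acid genes were called higher in liver for 10 of 11 members. Slc10a1, the basolateral bile salt importer, was at least 2.74-fold higher in liver (adjusted p = 0.000124), and Abcb11, the export pump, differed by 6.61 (SE 0.19, adjusted p = 1.46e-08). Cyp7a1, the rate-limiting enzyme of the classical route, read 7.50, 6.65, 10.60 and 10.41 in the livers of mice 1 to 4 and 4.25 to 4.32 in brain. It was at least 17.2-fold higher in liver (adjusted p = 0.000247), with the livers of mice 1 and 2 below those of mice 3 and 4. The exception was Cyp46a1, the cholesterol 24-hydroxylase of neurons. It read 8.08, 6.85, 7.99 and 6.88 in brain and 4.43 to 5.08 in liver, a difference of -2.76 (SE 0.24, adjusted p = 1.40e-05).

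Cytochromes P450 and conjugating enzymes passed 1 log2 unit in favour of liver for 18 of 18 genes, with a median of 7.31 (7.13). Cyp2e1, an oxidase of ethanol and small solvents, read 14.22, 14.21, 14.29 and 14.28 in liver and 4.28 to 4.40 in brain, at least 759-fold higher in liver (adjusted p = 1.48e-09). Gsta3, a glutathione transferase, and Gnmt, which uses up S-adenosylmethionine, were detected on all 8 arrays and differed by 7.72 (SE 0.14) and 8.71 (SE 0.17), with adjusted p of 2.29e-09 and 2.76e-09. The 12 tested transcription factors of hepatocytes also passed in favour of liver, with a median of 3.99 (3.85). Hnf4a, a nuclear receptor of hepatocyte identity, read 11.55, 11.53, 10.71 and 10.89 in liver and 4.80 to 5.39 in brain, a difference of 6.09 (SE 0.16, adjusted p = 1.15e-08). Nr1h4, the bile acid receptor, was at least 89.9-fold higher in liver (adjusted p = 2.69e-09), and Foxa1, a pioneer factor, differed by 2.88 (SE 0.19, adjusted p = 2.41e-06).

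Other liver genes among the 10 with the largest differences on all 8 arrays were Apoc1 (8.33) of lipoproteins, Acaa1b (8.08), a peroxisomal thiolase, Glyat (7.51), which joins glycine to acids, Aqp9 (7.47), a glycerol channel, Ang (7.38), a secreted ribonuclease, and Urah (7.36) of urate breakdown. Their SE lay between 0.12 and 0.24 and their adjusted p between 1.52e-09 and 1.82e-08. On the brain side stood Rtn1 (-7.67), a reticulon, Cdk5r1 (-7.34), the activator of the neuronal kinase Cdk5, Atp6v1g2 (-7.33), a proton pump subunit, and Syt11 (-7.33), a synaptotagmin. Olfm1 (-6.91), Klc1 (-6.86), a kinesin light chain, Epb41l3 (-6.79) of the membrane skeleton and Prkcb (-6.75), a protein kinase C, followed. These 8 brain genes had SE of 0.13 to 0.23 and adjusted p of 2.57e-09 to 2.49e-08.

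In brain, genes of the synaptic vesicle and of transmitter release passed 1 log2 unit for 12 of 12 members, with a median of -6.27 (-6.08), where 39.9% of all tested probes and 41.9% of genes were called higher in brain. Syp, synaptophysin of the vesicle membrane, had the largest brain difference among probes detected on all 8 arrays. It read 13.86, 13.51, 13.69 and 13.39 in brain and 5.47, 5.38, 5.78 and 5.64 in liver, a difference of -8.05 (SE 0.15, adjusted p = 2.29e-09). Syt1, the calcium sensor of release, differed by -5.52 (SE 0.19, adjusted p = 3.88e-08). Cplx1, complexin, which clamps the fusion machinery, was at least 573.4-fold higher in brain (adjusted p = 1.48e-09). These 3 genes lay between 11.20 and 14.35 in every brain.

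Receptors followed with more spread. Of 11 genes of glutamate receptors and the postsynaptic density, 10 were called higher in brain and 8 passed 1 log2 unit. Gria2, an AMPA receptor subunit, read 12.50, 12.01, 12.29 and 12.24 in brain and 4.59 to 5.19 in liver, a difference of -7.32 (SE 0.17, adjusted p = 5.21e-09). Dlg4, the scaffold PSD-95, was at least 12.2-fold higher in brain (adjusted p = 1.75e-08). The probe of Grin2b, an NMDA receptor subunit, lay near background in brain at 4.68 to 4.84 and was not called (-0.28, SE 0.14, adjusted p = 0.106).

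GABA synthesis, transport and receptors had 7 tested members, of which 5 were called higher in brain, as were 41.9% of all genes. Gad1, which makes GABA, read 12.02, 11.94, 12.21 and 12.09 in brain and 4.19 to 4.37 in liver, at least 136.2-fold higher in brain (adjusted p = 1.48e-09). Slc32a1, the vesicular GABA transporter, was at least 181.6-fold higher in brain (adjusted p = 1.48e-09). Abat, which degrades GABA, was equally bright in both tissues. It read 11.07 to 11.31 in liver and 11.14 to 11.39 in brain (-0.05, SE 0.14, adjusted p = 0.773), and its 3 probes differed in sign. Gphn, gephyrin, which anchors inhibitory receptors and also makes the molybdenum cofactor in other tissues, was called higher in liver by 0.60 (SE 0.22, adjusted p = 0.0374). That call was lost without mouse 2 (0.31, adjusted p = 0.127) or mouse 4 (0.61, adjusted p = 0.0840).

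Ion channels and the neuronal cytoskeleton were called higher in brain for 10 of 10 and 12 of 12 tested genes. Of the untested cytoskeleton genes, Nefl and Tubb2a were detected on no array. Tubb3 was detected on 3 livers and 1 brain, with means of 5.09 and 4.60. Scn1a, a sodium channel, read 7.50, 8.71, 7.43 and 9.57 in brain and was at least 10.0-fold higher there (adjusted p = 2.34e-05), with a wider spread between mice than most. Map2 of dendrites differed by -6.82 (SE 0.16, adjusted p = 6.22e-09). Ina, an intermediate filament protein, was at least 21-fold higher in brain (adjusted p = 1.59e-08).

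Myelin and oligodendrocyte genes passed 1 log2 unit in favour of brain for 9 of 9 members. Beside Mbp, Mobp was at least 53.7-fold higher (adjusted p = 1.63e-08) and Mog, a surface protein of myelin, at least 21.9-fold higher (adjusted p = 1.15e-08). Cldn11, the tight junction protein of myelin, read 13.61, 13.32, 13.58 and 13.41 in brain and 4.30 to 4.41 in liver. Neuropeptides passed for 12 of 12 members. Of these, 11 were detected in brain alone, so the detection rule largely set their direction. Sst read 11.63, 11.19, 11.43 and 11.26 in brain and 4.29 to 4.91 in liver, at least 84.7-fold higher in brain (adjusted p = 1.01e-08). Npy, neuropeptide Y, was at least 36.9-fold and Cck, cholecystokinin, at least 52.4-fold higher (adjusted p = 6.32e-09 and 2.99e-09). Hypothalamic peptides were dimmer: Avp, vasopressin, lay at 5.90 to 6.43 in brain and Hcrt, orexin, at 5.96 to 6.34.

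Astrocyte genes were mixed. Of 10 tested, 6 were called higher in brain and 3 higher in liver, against 41.9% and 37.4% of all genes. Slc1a3, a glutamate transporter, read 13.09, 13.31, 13.22 and 13.43 in brain and 4.33 to 4.55 in liver, at least 312.9-fold higher in brain (adjusted p = 1.48e-09). Slc1a2, the other main astrocyte glutamate transporter, was higher in liver on each of its 3 probes, by 0.72, 1.22 and 2.92. In the same order, the probes of Slc1a2 averaged 9.67, 8.80 and 4.93 in brain. What sets its probes apart was not tested. Its brightest probe read 10.51, 10.32, 10.45 and 10.28 in liver and 9.71, 9.72, 9.59 and 9.66 in brain (SE 0.13, adjusted p = 0.000972). Aldh1l1, a folate enzyme used to mark astrocytes, was higher in liver by 4.82 (SE 0.14, adjusted p = 1.93e-08). Clu, clusterin, a secreted chaperone, was at 13.19 to 13.41 in liver and 12.49 to 12.77 in brain (0.67, SE 0.14, adjusted p = 0.00232). Gfap, the filament protein of astrocytes, kept to brain, at 6.92 to 7.86 against 4.39 to 4.54 in liver, at least 4.96-fold higher (adjusted p = 8.72e-07).

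The 12 tested neuronal transcription and RNA-binding factors were called higher in brain. Rbfox3, the NeuN antigen, read 12.63, 13.15, 12.72 and 13.19 in brain and 4.56 to 5.27 in liver, a difference of -7.98 (SE 0.17, adjusted p = 4.45e-09). Elavl4, which binds and stabilizes neuronal messages, was at least 5.59-fold higher in brain (adjusted p = 6.69e-07). Neurod2, of cortical neurons, differed by -1.19 (SE 0.13, adjusted p = 6.62e-05) and did not pass 1 log2 unit.

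**Figure D4:**
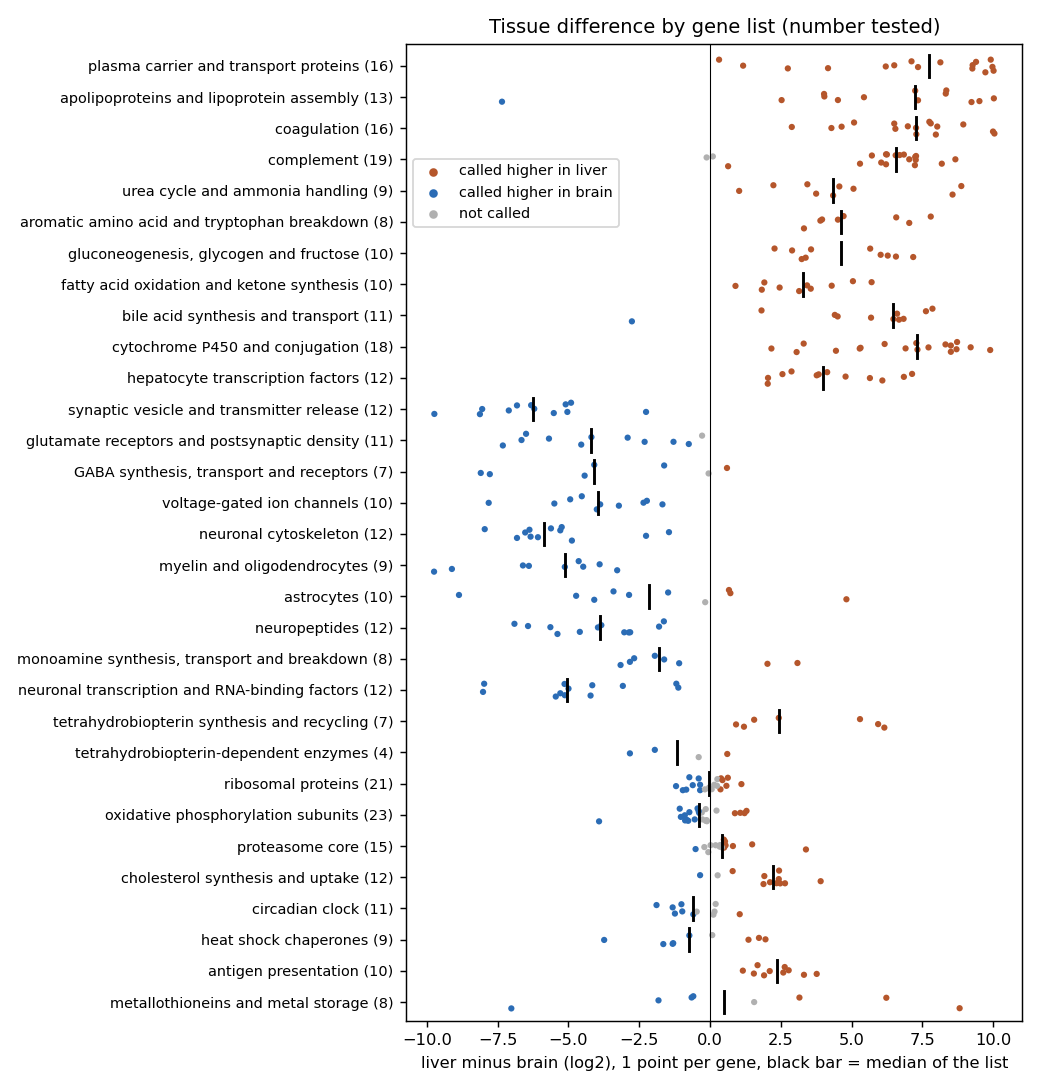
Liver minus brain (log2, horizontal) of each tested member of 31 gene lists, with the number tested in brackets and a black bar at the median. Orange points were called higher in liver, blue points higher in brain and grey points were not called; Apod and Cyp46a1 stand left of their liver lists and Aldh1l1 stands right of the astrocyte list.

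Tetrahydrobiopterin is the cofactor made by the enzyme that Pts encodes, and is used, among others, by the hydroxylases of monoamine synthesis and by nitric oxide synthases. All 7 tested genes of its synthesis and recycling were called higher in liver, and 5 passed 1 log2 unit, with a median of 2.43. Pts itself read 9.19, 9.00, 9.34 and 9.43 in liver and 8.25, 8.39, 8.07 and 8.57 in brain on its brighter probe. The difference was 0.92 (SE 0.15, adjusted p = 0.000561), and 0.77 (SE 0.23, adjusted p = 0.0149) on the other probe. Liver was above brain in 4 of 4 mice on the brighter probe and in 3 of 4 on the other, where the tissues overlapped. The call of the other probe was lost without mouse 1 (0.66) or mouse 3 (0.57).

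Gch1, GTP cyclohydrolase, the first and rate-limiting step, differed far more. It read 11.85, 11.91, 11.79 and 11.42 in liver and 5.70, 6.14, 5.49 and 5.87 in brain, a difference of 5.94 (SE 0.16, adjusted p = 1.19e-08), and its other probe differed by 4.82. Gchfr, its feedback regulator protein, differed by 6.16 (SE 0.14, adjusted p = 5.05e-09). Spr, sepiapterin reductase, the last step, differed by 2.43 (SE 0.14, adjusted p = 8.13e-07). Of the recycling enzymes, Pcbd1, pterin carbinolamine dehydratase, differed by 5.30 (SE 0.13, adjusted p = 7.48e-09). Qdpr, dihydropteridine reductase, was bright in both tissues, at 10.79 to 11.83 in liver and 9.87 to 10.12 in brain (1.20, SE 0.21, adjusted p = 0.000875). Gch1 therefore differed by more than Pts or Qdpr, at 5.94 against 0.92 and 1.20, as a description that was not tested between probes.

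Of 4 tested enzymes that use the cofactor, 2 were called higher in brain, 1 higher in liver and 1 was not called. Among all genes, 41.9% were called higher in brain and 37.4% higher in liver. Th, tyrosine hydroxylase of dopamine neurons, was detected on 4 brains at 5.95 to 6.44 and on 0 livers, at least 2.39-fold higher in brain (adjusted p = 6.86e-06). Tph2, tryptophan hydroxylase of serotonin neurons, was at least 4.79-fold higher in brain (adjusted p = 6.11e-07). Nos3, the endothelial nitric oxide synthase, was higher in liver by 0.61 (SE 0.23, adjusted p = 0.0353) and was not called on 1 of its other 2 probes (0.28, adjusted p = 0.334). Its call was lost without mouse 1, 2 or 4, at 0.47 to 0.59, and its difference in homozygous mice was 0.00. Nos1, the neuronal form, read 4.92 to 5.21 in brain and was not called (-0.40, SE 0.16, adjusted p = 0.0519), though it was without mouse 3 (-0.49) and without the replicate block (-0.40, adjusted p = 0.0274).

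In monoamine synthesis, transport and breakdown, 6 of 8 genes were called higher in brain and 2 in liver (41.9% and 37.4% of all genes). Both exceptions are enzymes of wide distribution. Ddc, which decarboxylates dopa and 5-hydroxytryptophan, read 9.45, 9.53, 10.43 and 10.39 in liver and 7.96, 8.16, 7.63 and 7.97 in brain (2.03, SE 0.25, adjusted p = 0.000107). Maob, monoamine oxidase B, was higher in liver by 3.09 (SE 0.14, adjusted p = 2.03e-07). The dopamine transporter Slc6a3, by contrast, was at least 5.83-fold higher in brain (adjusted p = 1.98e-07).

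Isozyme families divided between the tissues by member. In glycogen phosphorylase, the liver form Pygl differed by 6.03 (SE 0.23, adjusted p = 7.30e-08) and the brain form Pygb by -3.93 (SE 0.17, adjusted p = 1.89e-07). The pyruvate kinases did likewise, with the liver form Pklr at least 5.63-fold higher in liver (adjusted p = 3.21e-06) and Pkm -4.82 (SE 0.20, adjusted p = 1.13e-07). Among glucose transporters, Slc2a2 of hepatocytes was at least 61.2-fold higher in liver (adjusted p = 7.97e-09) and Slc2a3 of neurons at least 49.7-fold higher in brain (adjusted p = 6.56e-09). Slc2a1, of the blood-brain barrier, differed by -3.48 (SE 0.37, adjusted p = 4.28e-05). These 3 families each held a member with the opposite direction past 1 log2 unit.

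Other families had measured members on 1 side only. The hexokinases Hk1 (at least 4.19-fold, adjusted p = 1.14e-06) and Hk2 (-1.25, SE 0.15, adjusted p = 7.90e-05) were higher in brain, as were the phosphofructokinases Pfkp (-5.16), Pfkm (-4.20) and Pfkl (-1.40), with adjusted p between 3.13e-08 and 0.000141. Pfkl, the liver type by name, read 10.38 to 11.32 in brain and 9.37 to 9.49 in liver, and its other, dimmer probe was not called (0.32, SE 0.14, adjusted p = 0.0696). Aldoa and Aldoc, the muscle and brain aldolases, differed by -4.39 and -4.73, and Eno2, the neuronal enolase, at least 327.4-fold (adjusted p = 3.62e-09). Not every member of these families is analysed here.

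Brain energy buffering and ion pumping had bright members. Ckb, brain creatine kinase, read 14.69, 14.80, 14.80 and 14.80 in brain and 8.27 to 8.78 in liver (-6.23, SE 0.14, adjusted p = 4.92e-09), and the mitochondrial form Ckmt1 was at least 180.5-fold higher in brain (adjusted p = 4.24e-09). The sodium pump subunit Atp1b1 differed by -4.73 (SE 0.24, adjusted p = 4.80e-07), and Atp1b2, the glial subunit, was at least 93.1-fold higher in brain (adjusted p = 7.41e-09). Eef1a2, the elongation factor of neurons and muscle, differed by -8.12 (SE 0.26, adjusted p = 2.74e-08). In liver, Mat1a, which makes S-adenosylmethionine, was at least 624.3-fold higher (adjusted p = 1.48e-09). Ldha, lactate dehydrogenase A, was higher in liver by 1.41 (SE 0.20, adjusted p = 0.000275).

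The remaining families were split or close. Cpt1c, the neuronal carnitine transferase isoform, was at least 2.11-fold higher in brain (adjusted p = 5.88e-06) and Cpt1b, the muscle isoform, was dim in both and 0.44 higher in liver (SE 0.15, adjusted p = 0.0259), a call lost without mouse 1, 3 or 4, at 0.31 to 0.47. Acsl6 (-6.34) and Acsl3 (-1.30) were higher in brain and Acsl5 (2.28) higher in liver, with adjusted p between 5.07e-09 and 0.000358. Ptbp1, the splicing repressor of non-neuronal cells, read 9.32 to 9.75 in liver and 7.64 to 8.11 in brain (1.75, SE 0.17, adjusted p = 2.17e-05). Acaca, acetyl-CoA carboxylase of fat synthesis, was higher in liver by 0.78 (SE 0.17, adjusted p = 0.00324). Pygm, the muscle phosphorylase, was at least 1.16-fold higher in brain (adjusted p = 0.00206), and Gys2, the liver glycogen synthase, at least 8.00-fold higher in liver (adjusted p = 2.22e-07). Fabp3, the heart-type fatty acid binding protein, was at least 32.2-fold higher in brain (adjusted p = 5.21e-09). Other members of these families, namely Cpt1a, Fabp1, Fabp7 and Ptbp2, were detected on no array and were not tested. The division of these families between the tissues is therefore incomplete here.

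Genes that every cell uses differed little, and the direction of many depended on the scaling of the arrays. Of 21 ribosomal proteins, 6 were called higher in liver and 8 higher in brain, with 0 past 1 log2 unit and a median of -0.03. Over all genes, 37.4% were called higher in liver and 41.9% higher in brain. Rps3 read 11.62 to 11.75 in liver and 11.40 to 11.91 in brain (-0.03, SE 0.15, adjusted p = 0.857). Of 23 subunits of oxidative phosphorylation, 4 were called higher in liver and 12 higher in brain, and of 15 proteasome subunits 7 and 1. Scaled to the 75th percentile of each array, where the median of all tested probes moved by 0.17, the counts became 18 and 0 for ribosomal proteins, 17 and 3 for oxidative phosphorylation, and 15 and 0 for the proteasome. With cyclic loess they were 7 and 2, 5 and 8, and 9 and 0. A small difference in ribosomal or oxidative phosphorylation genes therefore has no settled direction here. Proteasome calls lay mostly in liver by each scaling, although Psma2 went from -0.51 to 0.64 when scaled to the 75th percentile.

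Cox6a2, Psmb9 and Psmb8 passed 1 log2 unit. Cox6a2, the heart and muscle form of a cytochrome oxidase subunit, was detected on 4 brains at 8.20 to 8.65 and on 0 livers, at least 10.7-fold higher in brain (adjusted p = 1.70e-07). Psmb9, a subunit of the immunoproteasome, differed by 3.39 (SE 0.13, adjusted p = 6.96e-08). Antigen presentation genes, with which Psmb9 acts, were called higher in liver for 10 of 10 members, 9 of them past 1 log2 unit. B2m, the light chain of class I molecules, read 13.56, 13.61, 13.66 and 13.61 in liver and 10.99, 10.61, 10.82 and 10.91 in brain (2.78, SE 0.13, adjusted p = 3.17e-07). H2-K1, a class I heavy chain, was at least 8.47-fold higher in liver (adjusted p = 1.87e-07), and H2-Ab1 of class II differed by 2.64 (SE 0.21, adjusted p = 7.35e-06). Class I genes are closely related in sequence, so the probe of H2-K1 may read others.

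Heat shock chaperones were split, with 3 of 9 higher in liver and 5 higher in brain, against 37.4% and 41.9% of all genes. The mitochondrial pair Hspd1 and Hspe1 was higher in liver by 1.36 (SE 0.14) and 1.96 (SE 0.13), with adjusted p of 3.12e-05 and 1.99e-06. Hspa8, the constitutive chaperone, was higher in brain by the main normalization (-0.73, SE 0.13, adjusted p = 0.000992) and higher in liver when scaled to the 75th percentile (0.86). In the list of metallothioneins and metal storage, 3 of 8 genes were called higher in liver and 4 higher in brain. The shares of all genes were again 37.4% and 41.9%. Scaled to the 75th percentile, the list counts were 4 and 1. Hamp, hepcidin, the iron hormone, was at least 353.7-fold higher in liver (adjusted p = 1.63e-09), and Cp, ceruloplasmin, differed by 6.23 (SE 0.15, adjusted p = 6.56e-09). Slc40a1, the iron exporter ferroportin, was higher in liver by 3.16 (SE 0.14, adjusted p = 1.81e-07).

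Markers of resident cell types set the tissues apart beyond hepatocytes and neurons. Of 8 tested hepatocyte markers, 8 were called higher in liver, and 6 were detected on 0 of 4 brains, Ttr and Apoa1 being the exceptions. Of the neuron markers, Syt1 was detected on 4 of 4 livers at 5.68 to 6.34, and Gad1, Slc17a7 and Stmn2 on 0 of 4. Kupffer cell markers were called higher in liver for 5 of 5 genes. Clec4f, their lectin, read 8.08, 8.07, 8.44 and 8.51 in liver and 4.28 to 4.57 in brain, at least 12.1-fold higher in liver (adjusted p = 3.98e-08). Vsig4, a complement receptor, was at least 17.3-fold higher in liver (adjusted p = 2.43e-08).

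Of 6 microglia markers, 5 were called higher in brain and 1 higher in liver. Tmem119 differed by -0.82 (SE 0.14, adjusted p = 0.000724), with both tissues between 5.11 and 6.41. Cx3cr1, the fractalkine receptor, differed by -1.86 (SE 0.18, adjusted p = 2.25e-05). Sall1, a transcription factor of microglia, was higher in liver by 0.57 (SE 0.17, adjusted p = 0.0156), and was not called without mouse 1 (0.52) or mouse 2 (0.45). Markers shared by macrophages of both tissues were divided, with 2 of 7 called in each direction and 3 not called. Of these 7, 0 passed 1 log2 unit. Over all genes, 37.4% were called higher in liver and 41.9% higher in brain.

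Endothelium differed by type. All 6 markers of the liver sinusoid passed 1 log2 unit in favour of liver, among them Clec4g, a lectin (6.87, SE 0.13, adjusted p = 2.57e-09) and Stab2, a scavenger receptor (3.63, SE 0.18, adjusted p = 4.23e-07). All 4 tested markers of brain endothelium passed in favour of brain, among them Slco1c1, the thyroxine carrier of the barrier, at least 10.8-fold higher (adjusted p = 2.73e-08). Of 5 markers common to both, 4 were called higher in liver, as were 37.4% of all genes, and 1 was not called. Pecam1 read 6.89 to 7.25 in liver and 6.16 to 6.66 in brain (0.66, SE 0.13, adjusted p = 0.00174). Stellate cell markers were divided, with Dcn, decorin, higher in liver by 2.40 (SE 0.18, adjusted p = 5.07e-06) and Reln, reelin, which brain neurons also secrete, higher in brain (-1.62, SE 0.23, adjusted p = 0.000235).

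Markers of fat had 0 tested genes of 5 on the array, as did those of lymphocytes and of pituitary. The 4 fat markers Adipoq, Plin1, Lep and Retn were detected on 0 of 8 arrays, and Cidec, a lipid droplet protein, on 2 livers. Blood markers were detected in both tissues. Hba-a1, alpha globin, read 12.59 to 13.12 in liver and 13.84 to 14.38 in brain, -1.23 by the main normalization (SE 0.16, adjusted p = 0.000169) and 0.30 when scaled to the 75th percentile. Alas2, the haem enzyme of red cell precursors, was higher in liver by 3.55 (SE 0.21, adjusted p = 1.05e-06). Slc4a1, the anion exchanger of red cells, read 5.25 to 5.78 in liver and 5.14 to 6.13 in brain and was not called (-0.06). Cela1, an elastase listed as a pancreas marker, was higher in liver by 3.60 (SE 0.30, adjusted p = 1.05e-05), while Cpa1, Prss2 and Cel were detected on 0 of 8 arrays. The part of blood in other differences was not tested.

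Some liver transcripts differed as much between mice as between tissues. Over all tested probes the 4 within-mouse differences had a median SD of 0.30, and 179 probes (1.30%) had an SD over 1. Mt1, a metallothionein induced by zinc and stress, read 14.21, 14.49, 11.28 and 10.69 in the livers of mice 1 to 4 and 14.33 to 14.61 in brain. Mt2 read 10.29, 10.17, 5.33 and 4.65 in liver and 5.24 to 6.93 in brain. Mice 1 and 2 were thus high in liver and mice 3 and 4 low, while the brains differed less.

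The difference of Mt1 was -1.82 (SE 0.58, adjusted p = 0.0199) and was lost without mouse 3 (-1.40) or mouse 4 (-1.21), and when scaled to the 75th percentile (-0.53). Mt2 was not called (1.56, SE 0.81, adjusted p = 0.108), was called higher in liver without mouse 4 (2.51, adjusted p = 0.0121) and higher in brain without mice 1 and 2 (-0.61, adjusted p = 0.0320). Mt3, the metallothionein of brain, was at least 82.2-fold higher in brain (adjusted p = 1.26e-06), and its brains read 12.64, 10.18, 12.31 and 10.21. The brains of mice 1 and 3, high for Mt3 and Cyp46a1 and low for Scn1a, had a 75th percentile of signal of 325.2 and 343.3. Those of mice 2 and 4 had 243.0 and 258.6. The part of array signal in these values was not tested.

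Dbp, Tlr2, Thrsp and Gadd45g were chosen for their spread after their values were seen. Dbp, an output factor of the circadian clock, read 7.77, 8.08, 10.96 and 10.42 in liver and 10.85 to 11.38 in brain. Tlr2, a receptor for bacterial lipoproteins, read 11.39, 11.27, 6.32 and 5.93 in liver and 5.04 to 5.49 in brain. Both genes again separated the livers of mice 1 and 2 from those of mice 3 and 4, in opposite directions. Thrsp, a lipogenic factor, read 8.39, 8.74, 10.67 and 11.13 in liver, and Gadd45g, a stress gene, 10.22, 10.14, 6.44 and 7.20. S100a8, a neutrophil protein, read 8.43, 8.15, 6.01 and 7.23 in liver and 10.13, 9.60, 6.05 and 6.68 in brain, so that mice 1 and 2 were high in both tissues. The labels do not give feeding, time of day or health of the animals, and their part in these values was not tested.

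**Figure D5:**
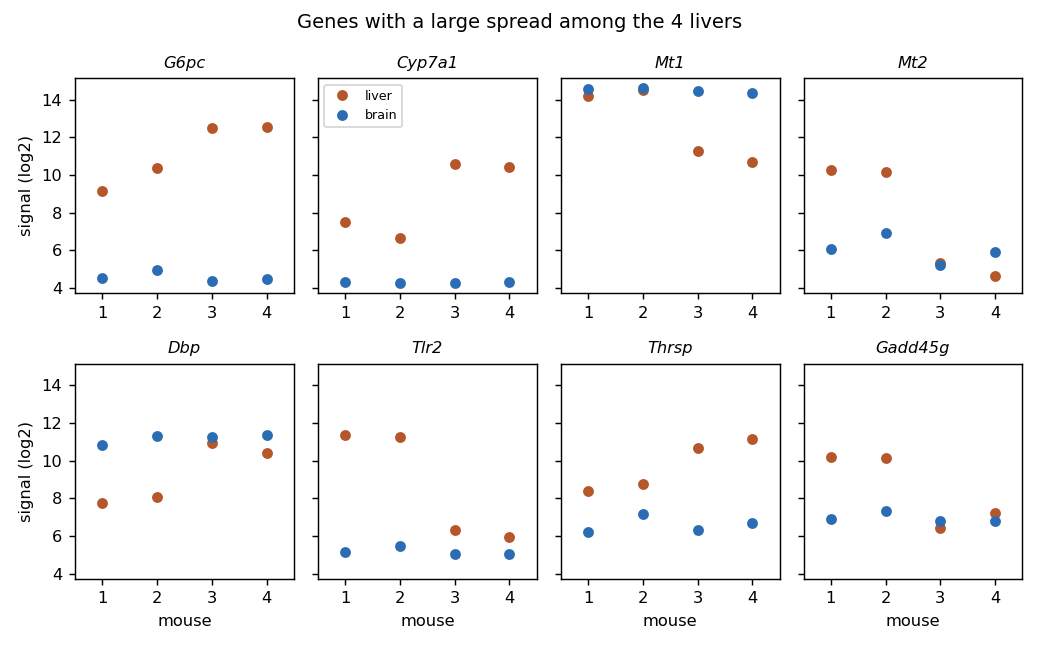
Log2 signal (vertical) of 8 genes in liver (orange) and brain (blue) of wild-type mice 1 to 4 (horizontal). In liver, G6pc, Cyp7a1, Dbp and Thrsp are lower in mice 1 and 2 and Mt1, Mt2, Tlr2 and Gadd45g higher, while brain values differ less between mice.

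Of 11 circadian clock genes, 1 was called higher in liver and 6 higher in brain, where 41.9% of all genes were, and 0 passed 1 log2 unit. Scaled to the 75th percentile the counts were 2 and 3. Differences ran from -1.89 for Dbp to 1.05. Nr1d1, the repressor REV-ERB alpha, was the 1 higher in liver, at 7.11, 7.82, 8.90 and 8.64 against 6.65 to 7.53 in brain (1.05, SE 0.34, adjusted p = 0.0208). That call was lost without mouse 2, 3 or 4, at 0.77 to 1.01. Arntl, its target and an activator of the clock, was not called (0.12, SE 0.19, adjusted p = 0.581). Per1, a repressor that light and hormones induce, was higher in brain (-0.59, SE 0.23, adjusted p = 0.0407) with overlapping tissues, and was not called without mouse 1, 3 or 4, at -0.53 to -0.45.

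Probes of 1 gene seldom pointed in opposite directions. Among 2489 genes with at least 2 tested probes, 86 had probes called in both directions, and 1 had them past 1 log2 unit on both sides. This was Ptpre, a receptor-type tyrosine phosphatase with membrane and cytosolic isoforms. The first probe read 9.69 on average in liver and 7.13 in brain (2.56, SE 0.18, adjusted p = 3.65e-06), and the other 5.70 and 8.76 (-3.06, SE 0.21, adjusted p = 2.86e-06). Which isoform each probe reads was not tested.

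The same contrast in the 4 homozygous mice, normalized separately, gave nearly the same calls. Of 5191 wild-type probes past 1 log2 unit, 5178 were tested there and 4851 (93.5%) passed in the same direction, where 40.4% of 13697 tested probes passed in all. Over these 5178 probes, the median gap between the wild-type and homozygous difference was 0.18, and 86.9% lay within 0.5. The sign differed for 1 probe, of Fabp5, the epidermal fatty acid binding protein. It read 7.39, 7.33, 6.28 and 7.38 in wild-type liver and 5.02 to 5.44 in wild-type brain (1.78, SE 0.23, adjusted p = 0.000135), and the difference in homozygous mice was -0.26. Nnmt, nicotinamide N-methyltransferase, kept its direction at 7.33 in wild-type and 4.18 in homozygous mice.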

How the data were processed

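Whole-tissue RNA was measured on Illumina bead arrays, 1 array per tissue and mouse. The main values are the intensity per probe, not normalized between arrays, and its detection p-value, both deposited by the authors and made with GenomeStudio 2011.1 per the submitters' processing notes. A second deposited table of intensity values that the authors normalized served as an alternative. Its method and a genome build are not given in the sources used here. The number of arrays limits the precision.

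With limma 3.58.1 in R 4.3.3, background was corrected from the detection p-values (nec, offset 16), and the 8 wild-type arrays were quantile normalized together and put on the log2 scale. Probes with a detection p-value under 0.05 on all 4 arrays of a tissue were tested by lmFit and eBayes, with mouse as a block since the labels give both tissues the same animal identifier, and by treat at 1 log2 unit. All p-values were adjusted by Benjamini-Hochberg over all tested probes. The deviations of liver and brain from the same mouse correlated at 0.1354, -0.03051, 0.05389 and 0.06442. Between different mice these correlations ran from -0.1925 to 0.1542, so the same-mouse values lay within that range. Homozygous arrays were fitted alike, apart from the wild-type ones.

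Of 25697 probes, 23978 had 1 gene symbol, 1719 had none, and 23962 were matched to RefSeq names. Lists used the brightest probe of a gene: of 600 listed genes, 516 had a probe and 438 were tested. Text genes were drawn from the 10 largest differences each way on all 8 arrays, the first 3 tested members and up to 3 exceptions of each list, all isozymes, genes with opposed probes, and Pts. Not all of these are printed; which to print, and any other gene given, was decided after their values were seen. The members and lists were chosen with earlier results of these data known. Alternatives changed the block, normalization, background, filter, variance model, weights and mice. The method was tested on simulated data.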

Additional observations from a re-analysis of the deposited data

Results flagged for a closer look

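Among 198 named probes, the liver minus brain difference of 1 mouse stood far from the other 3 for 6 probes, and chance gives this for about 1 in 20. Mouse 4 had 9.67 for Apoa1, the main protein of high-density lipoprotein, against 9.06 to 9.15 in the others, so that the direction was shared by 4 mice. For Pck1, of gluconeogenesis, mouse 4 had 2.96 against 3.72 to 3.84. For Gabrb2, a GABA receptor subunit, mouse 2 had -0.93 against -1.86 to -1.84. Mouse 4 had 0.75 against 0.50 to 0.53 for the ribosomal protein Rps16, and -0.73 against -0.46 to -0.41 for the proteasome subunit Psma2. For Slc4a1, the anion exchanger of red cells, mouse 2 had -0.88 against 0.13 to 0.34, the opposite sign.

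The tissue difference of Fabp5 differed between genotypes. Fitted over 16 arrays it was 1.77 in wild-type and -0.27 in homozygous mice, a gap of 2.04 (limma interaction, adjusted p = 0.0404). Of 14182 probes tested for such a gap, 10 were called (0.0705%), and 1559 had an unadjusted p under 0.05.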

How the results depend on the processing

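Called probes numbered 10828, and 6626 when only probes detected on all 8 arrays were tested, where fewer probes enter. Past 1 log2 unit were 5191 probes, against 3095 with the authors' normalized values, 2943 without background subtraction and 2495 for probes on all 8 arrays; the cause was not tested for the first 2 of these. The repeat in homozygous mice counted 4851, against 2966, 2783 and 2207. Genes with opposed probes numbered 1, and 2 when scaled to the 75th percentile, with a trended robust variance, with weighted arrays, without mice 1 and 2, and with mice 1 and 3 only. Leaving out 1 mouse gave 10199 to 10437 called, 4866 to 5009 past 1 log2 unit, 1 to 2 opposed genes and 4616 to 4773 repeated. Without the replicate block, 10925 were called and 5224 passed 1 log2 unit. Liver held 49.3% of calls and 46.6% past 1 log2 unit, 54.7% and 52.8% scaled to the 75th percentile, and 58.0% and 57.4% on all 8 arrays.

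Over 198 named probes, 3560 of 3670 values kept the call and its direction, or stayed uncalled with either sign. Another 90 lost the call, 10 gained one and 10 reversed. Scaled to the 75th percentile, the reversed ones were Rpl3 (0.40), Rps3 (0.99), Cox4i1 (0.56), Ndufa9 (0.89), Psma2 (0.64), Hmgcs1 (1.14), Hspa8 (0.86) and Hba-a1 (0.30). Hmgcs1 also reversed with cyclic loess (0.20), and Mt2 without mice 1 and 2 (-0.61); the cause was not tested. Signal near background limits Alb, Snap25, Nefl and Gad2.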

Other observations

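Several probes of genes known to be abundant in these tissues read at background. Fgb, fibrinogen beta chain, was detected on 2 of 4 livers and 0 of 4 brains, with means of 4.80 and 4.39. Snap25, a synaptic fusion protein, was detected on 0 of 8 arrays, with means of 4.39 in liver and 4.29 in brain. These probes were not tested, and 78 listed genes with a probe were in the same position.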
